A study of Mus musculus with 16 samples.

Results

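Cytokine receptors tell developing T cells whether to survive, divide or differentiate, and the receptors described here are those by which early thymocytes sense interleukins and the growth factors SCF and FLT3 ligand. The set was defined by name as *Il7r*, *Il2ra*, *Il2rb*, *Il2rg*, *Il4ra*, *Il6ra*, *Kit* and *Flt3*, and its members were all probe sets of the array annotated to one of these symbols alone. 14 of the 45101 probe sets of the array met this rule and covered 7 of the 8 genes, among 18194 genes named by the array in all. *Il4ra* had 3 probe sets, *Flt3* had 1 and each of the others had 2, whereas *Il2rg*, the common γ chain, was not analysed here. A value of 20, near the background of the array, served as the lower limit of a measured level, and all 14 probe sets exceeded it in at least 1 array.

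Among these genes, *Il7r* encodes the IL-7 receptor α chain, which pairs with the common γ chain and signals through JAK1, JAK3 and STAT5 to keep early thymocytes alive. *Il2ra* encodes CD25, the high-affinity subunit of the IL-2 receptor and the surface marker by which the CD25-positive double negative stages are recognised, and *Il2rb* encodes the β chain shared by the IL-2 and IL-15 receptors. *Il4ra* and *Il6ra* encode the ligand-binding chains for IL-4 and IL-6, while *Kit* and *Flt3* are receptor tyrosine kinases best known from haematopoietic progenitors and the earliest thymic immigrants.

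The values came from 16 arrays made from 8 mice, namely 4 littermate pairs of a PKBα-/- mouse, lacking *Akt1* in every tissue, and a wild-type (PKBα+/+) mouse, all of a C57Bl/6 backcross and without any treatment. Each mouse gave 1 array of DN3 thymocytes, the double negative cells in which the T cell receptor β chain is rearranged, and 1 array of ISP8 thymocytes, which have passed β-selection and carry CD8 but not yet CD4 or CD3, so that each of the 4 groups held 4 arrays. The pairs were a female pair of 3 weeks, a male pair of 3 weeks, a male pair of 2 weeks and a female pair of 5 weeks, and the same number of cells was sorted from both mice of a pair. DN3 cells were sorted on CD25, CD44 and absence of lineage markers, and ISP8 cells on CD8, CD4 and CD3. Because the DN3 gate selected for CD25, the product of *Il2ra*, the difference of *Il2ra* between the subsets is given as a description without a test.

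All values are GC-RMA expression values on a linear scale, on which the study regards a comparison between genes as semi-quantitative. Sums over marker lists and words such as dim are therefore a rough guide only. Array medians were between 55.1 and 70.5 in all 4 groups. The leading *Akt1* probe set, which checked the genotype, gave 1198 to 2211 in the 8 wild-type arrays and 2.01 to 27.3 in the 8 PKBα-/- arrays. Of the 10 DN3 stage markers, 8 were lower in ISP8 than in DN3 of wild-type mice, and of 9 tested ISP8 and double positive stage markers 5 were higher, among them *Cd8a* with a mean of 246 in DN3 and 5924 in ISP8. One marker of that list, *Tcra*, was lower in ISP8. CD8 was among the lineage markers absent from sorted DN3 cells, and ISP8 cells were sorted for it, so the sort set the direction of *Cd8a*. The marker lists also hold *Cd8b1*, *Cd4*, *Cd3e* and *Cd3g*, whose products were used in the sort. Their counts are therefore a description and not an independent check of the stages. All ISP8 arrays also preceded the DN3 arrays in the numbering of the hybridisations, so array order and subset cannot be told apart. The log2 ratio of the 3′ to the 5′ control probe set of actin, a sign of RNA length after amplification, was 2.61 to 3.10 in wild-type DN3 arrays against 1.85 to 2.59 in wild-type ISP8 arrays, and 2.50 to 3.11 against 2.13 to 2.90 in PKBα-/- mice. The same ratio of *Gapdh* overlapped between the subsets. It was 1.71 to 2.27 in DN3 against 1.60 to 1.96 in ISP8 of wild-type mice, and 1.41 to 2.10 against 1.49 to 2.39 in PKBα-/- mice. The part of RNA length in the differences between subsets was not tested.

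The sequences just before the transcription start are shown for *Il7r* and *Kit*, which were lower in ISP8, and for *Il2ra*, whose direction the sort gate set. They were read from RefSeq windows of build GRCm38.p6, in which 7 of the 8 genes, all but *Il2rb*, had an entry. They lie on the minus strand at chr15:9529942-9530126 for *Il7r*, where the bases of a longer annotated transcript were left out, on the plus strand at chr2:11642542-11642791 for *Il2ra* and on the plus strand at chr5:75574737-75574986 for *Kit*. Capitals mark matches, on either strand, to any of 7 short motifs of factors known from thymocytes.
Il7r: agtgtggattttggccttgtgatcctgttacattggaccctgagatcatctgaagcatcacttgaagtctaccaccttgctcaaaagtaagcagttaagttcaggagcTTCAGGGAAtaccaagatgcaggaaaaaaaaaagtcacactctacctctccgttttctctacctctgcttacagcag
Il2ra: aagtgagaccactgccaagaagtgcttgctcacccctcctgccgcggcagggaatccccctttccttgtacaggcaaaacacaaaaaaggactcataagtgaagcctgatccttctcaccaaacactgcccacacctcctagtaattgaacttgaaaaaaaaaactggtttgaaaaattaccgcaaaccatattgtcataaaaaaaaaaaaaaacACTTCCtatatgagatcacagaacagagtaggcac
Kit: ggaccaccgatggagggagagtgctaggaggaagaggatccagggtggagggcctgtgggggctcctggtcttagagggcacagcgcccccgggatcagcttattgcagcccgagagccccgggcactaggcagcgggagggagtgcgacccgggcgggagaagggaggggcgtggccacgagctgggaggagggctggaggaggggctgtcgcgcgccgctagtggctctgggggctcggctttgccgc

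The motifs searched in the 250 bases before the start were TGTGGT for RUNX, GTAAACA for FOXO, TTCNNNGAA for STAT factors, TGGGAA for RBPJ, AGATAA for GATA factors, CAGCTG for E proteins and GGAAGT for ETS factors, on both strands. The *Il7r* window held the STAT motif once, beginning 142 bases before the start, as did 7.02% of 32851 windows of the same length, and an ETS motif 49 bases before the start, in the part not shown. The *Il2ra* window held the ETS motif once, 35 bases before the start, which 19.7% of all windows also held, and the *Kit* window held none of the 7. The FOXO motif, present in 3.17% of all windows, and the RUNX motif, present in 14% of them, were found in none of the windows of *Il7r*, *Il2ra* and *Kit*. These matches are descriptions of letters and not binding sites.

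The first comparison was that of ISP8 with DN3 cells of the same wild-type mice. Leaving out *Il2ra*, 11 member probe sets passed the filter on low values and were tested, of which 3 were lower in ISP8, both probe sets of *Il7r* and the leading one of *Kit*, and 0 were higher. Over all 34506 probe sets tested 17.3% were lower, 11.6% were higher and 28.9% changed in either direction, so that a lower value in ISP8 was by itself a common event. The 3 calls came from 2 genes, since probe sets of one gene share a transcript. In bulk samples like these, fewer cells that contain a transcript and less RNA per cell cannot be told apart.

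*Il7r* was lower in ISP8 than in DN3 in each of the 4 wild-type mice. In wild-type DN3 cells its leading probe set gave 7470.2, 6978, 6067 and 6689 in the female pair of 3 weeks, the male pair of 3 weeks, the male pair of 2 weeks and the female pair of 5 weeks, in that order. In wild-type ISP8 cells the same mice gave 850.5, 1257, 766 and 812. The lowest DN3 array was thus well above the highest ISP8 array, and the transcript was still far from 20 after the transition. The level was 7.51-fold lower in ISP8 (log2 difference -2.91, SE 0.12, 95% interval -3.17 to -2.65, n = 4 mice, limma adjusted p = 3.51e-09), which ranked the probe set 424th from the lowest of the 34506 differences. The other *Il7r* probe set, whose wild-type values ran from 1332 to 1487 in DN3 and from 97.8 to 190.5 in ISP8, was 10.4-fold lower (log2 difference -3.38, SE 0.19, adjusted p = 4.26e-08).

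*Il2ra* showed the widest gap of the set, as the sort on CD25 requires of its product. Wild-type DN3 arrays gave 9316, 8608, 7710.0 and 6899 at the leading probe set, in the order of pairs given for *Il7r*, and the ISP8 arrays of the same mice gave 251, 231, 174 and 84.8. The mean ISP8 level of the 4 mice was 47.3-fold lower on the log2 scale (log2 difference -5.56), and differences of single mice ran from -6.35 to -5.21. The other probe set was 32.3-fold lower, falling from between 839 and 1228 to between 20.1 and 70.9. Even so, both probe sets stayed above 20 in all 4 wild-type ISP8 arrays. The lowest ISP8 array was that of the 5-week mouse at the leading probe set and that of the 2-week mouse at the other.

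*Kit*, the receptor for SCF, was moderately expressed in DN3 cells and reduced in ISP8. The leading probe set gave 728, 580.3, 450.4 and 483 in wild-type DN3 and 132, 174, 115.0 and 91.2 in wild-type ISP8 of the same mice, without overlap of the groups. The level was 4.42-fold lower (log2 difference -2.14, SE 0.21, 95% interval -2.60 to -1.69, n = 4 mice, adjusted p = 5.14e-06). The other *Kit* probe set lay near 20, with 17.6 to 51.7 in DN3 and 6.10 to 17.5 in ISP8, and although it was lower in 4 of 4 mice it did not pass the test (adjusted p = 0.225), whereas it passed when all 16 arrays entered 1 fit with the mouse as a random block (adjusted p = 0.0418). All 4 of its wild-type ISP8 arrays were below 20 and it entered the test through DN3 alone, so the size of its difference is not given.

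**Figure D1:**
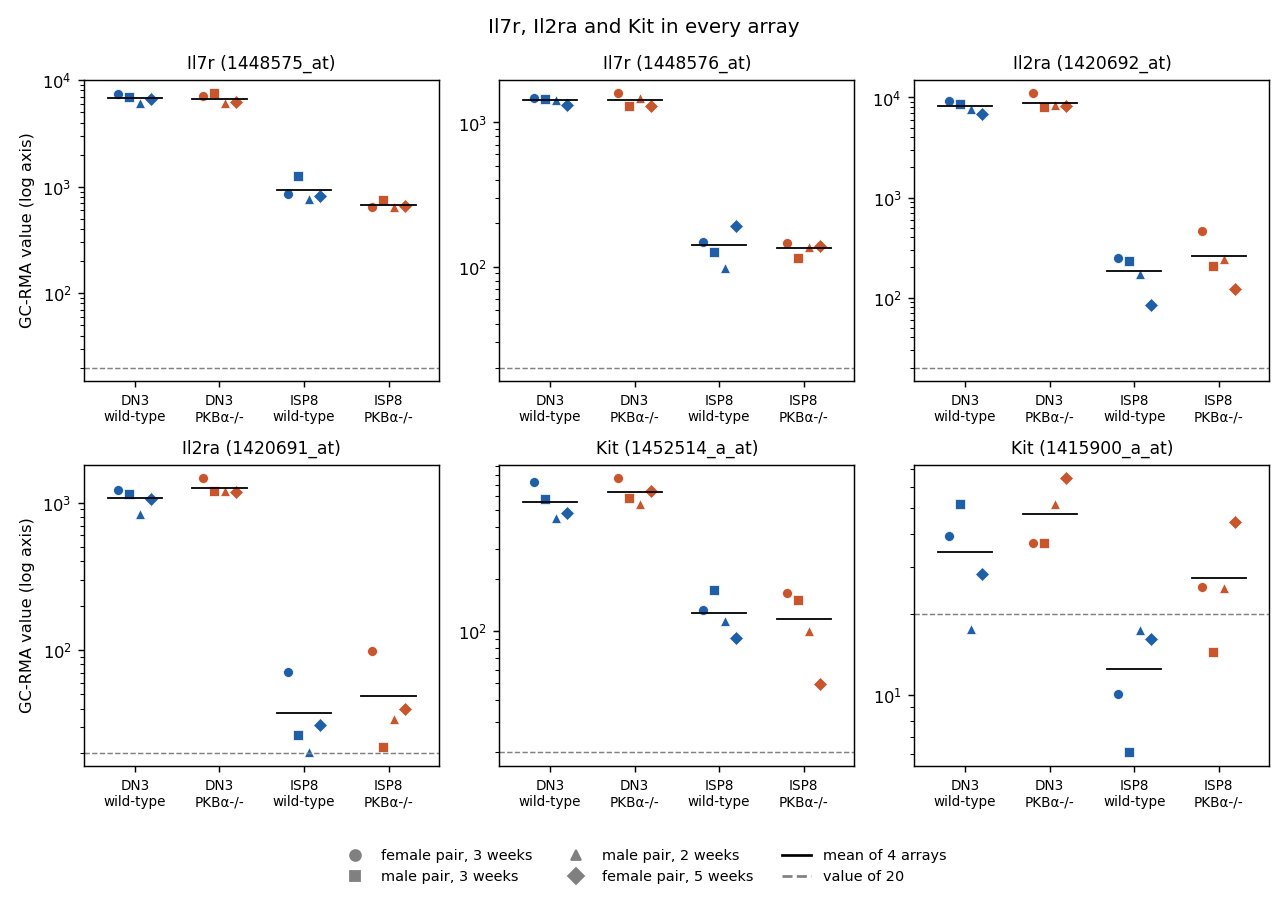
GC-RMA values on a log axis of all probe sets of *Il7r*, *Il2ra* and *Kit* in each of the 16 arrays, by subset and genotype, with a symbol for each littermate pair, a line at the mean of 4 arrays and a dashed line at 20. At both probe sets of *Il7r* and *Il2ra* and at the leading one of *Kit* all DN3 arrays lie above all ISP8 arrays, whereas the genotypes overlap within each subset, except at the leading *Il7r* probe set in ISP8.

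The order of levels over the 4 groups could be read for these 3 genes. At the leading *Il7r* probe set, the mean was 6801 ± 586 (SD, n = 4) in wild-type DN3, 6721 ± 690 in PKBα-/- DN3, 921 ± 226 in wild-type ISP8 and 674 ± 50.2 in PKBα-/- ISP8. At that of *Il2ra*, it was highest in PKBα-/- DN3 with 8905 ± 1386, followed by wild-type DN3 with 8133 ± 1053, PKBα-/- ISP8 with 258 ± 144 and wild-type ISP8 with 185 ± 74.5. At that of *Kit*, PKBα-/- DN3 with 634 ± 95.8 stood before wild-type DN3 with 560.5 ± 125, and wild-type ISP8 with 128 ± 34.9 before PKBα-/- ISP8 with 117 ± 53.0. In each gene the step between the subsets exceeded the spread of the arrays, and neighbours within a subset overlapped, except at *Il7r* in ISP8.

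*Kit* and *Il7r* are also found in other cells of the thymus, so marker lists of such cells are given beside them. The 7 measured mast cell and basophil markers summed to 843 to 3316 in wild-type DN3 and 139 to 257 in wild-type ISP8 arrays, with *Cpa3*, which thymic progenitors are known to share with mast cells, at a mean of 1977 and 58.5. This sum was carried by *Cpa3*, the 1 of 5 tested markers of the list that was lower, with 0 higher and a median log2 difference of 0.90 over the 5. Among PKBα-/- mice 1 of 5 was lower, again *Cpa3*, and 1 was higher, *Tpsb2*. Markers with a mean above 20 numbered 2 of 7 in wild-type DN3, 5 of 7 in wild-type ISP8 and 3 of 7 in both PKBα-/- groups, and *Fcer1a* and *Mcpt4* were below 20 in all 4 groups. The 10 DN1 and DN2 progenitor markers summed to 1049 to 1846 in wild-type DN3 and 461 to 566 in wild-type ISP8, and 2 of the 10 were lower in ISP8 with 0 higher. The 4 γδ T cell markers summed to 1342 to 4023 and 303 to 703, with all 4 lower in ISP8, and the 7 B cell markers to 1647 to 1728 and 445 to 689, with 2 lower and 1 higher. In PKBα-/- mice the mast cell and basophil markers summed to 822 to 2804 in DN3 and 89.7 to 201 in ISP8, and the progenitor markers to 789.8 to 1557 and 317 to 525. The part of these cells in the receptor differences was not tested.

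Of the remaining lists in the same comparison, the 6 tested mature T cell markers held 1 gene that was lower, *Nkg7*. The 9 dendritic cell and macrophage markers held 3 that were lower and 1 that was higher, the 8 natural killer and innate lymphoid markers held 3 that were higher and summed to 11259 to 15107 in DN3 and 16782 to 21345 in ISP8, most of it *Gzma* with a mean of 12304 and 18439.7, and the 10 thymic epithelium and stroma markers held 2 that were lower. The 1 erythroid marker that passed the filter did not change past the threshold.

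The remaining receptors were dim in both subsets, and none of their probe sets passed the test in either genotype. *Il2rb*, needed for IL-15 signals in natural killer and memory T cells, gave 5.43, 37.7, 65.7 and 33.3 in wild-type DN3 and 34.5, 33.0, 13.3 and 25.6 in wild-type ISP8 at its leading probe set, again in the order of pairs given for *Il7r*. The groups overlapped and the difference was close to 0 with a wide error (log2 difference -0.05, SE 0.80, adjusted p = 0.973). The other *Il2rb* probe set exceeded 20 in 1 wild-type ISP8 array and in 1 PKBα-/- ISP8 array and was not tested.

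*Il4ra* gave 92.2, 83.2, 8.74 and 77.5 in wild-type DN3 and 76.1, 22.2, 23.1 and 75.0 in wild-type ISP8 at its leading probe set. The 2-week mouse was far below the other DN3 arrays but not below the other ISP8 arrays, and the groups overlapped (log2 difference -0.21, SE 0.55, adjusted p = 0.825). The other probe sets of *Il4ra* were each higher in ISP8 in 3 of 4 mice and did not pass (limma adjusted p = 0.302 and 0.363). In wild-type DN3 1 of 4 arrays of the first and 0 of 4 of the second were above 20, against 3 of 4 each in ISP8. They entered the test through ISP8, so the sizes of their differences are not given.

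*Il6ra* gave 21.4, 38.0, 40.0 and 60.6 in wild-type DN3 and 61.3, 16.5, 30.6 and 66.7 in wild-type ISP8 at its leading probe set (log2 difference 0.01, SE 0.56, adjusted p = 0.989). In PKBα-/- mice the same probe set was higher in ISP8 in 4 of 4 mice, with values of 12.9 to 49.4 in DN3 and 34.8 to 119 in ISP8, but did not pass (limma adjusted p = 0.100). Only 2 of 4 PKBα-/- DN3 arrays were above 20, against 4 of 4 in ISP8. The probe set entered this test through ISP8, so the size of its difference is not given. The other *Il6ra* probe set was lower in ISP8 in 3 of 4 mice of each genotype (log2 difference -0.80, SE 1.20, adjusted p = 0.680 in wild-type mice).

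*Flt3*, the receptor of multipotent progenitors, was the one member whose wild-type value was higher in ISP8 in 4 of 4 mice at the leading probe set. It gave 10.2, 6.12, 8.98 and 24.4 in wild-type DN3 and 56.3, 60.0, 15.4 and 58.5 in wild-type ISP8, so that 3 of the 4 ISP8 arrays were above every DN3 array and the fourth, of the 2-week mouse, was within their range. The difference missed the threshold (unadjusted p = 0.0246, limma adjusted p = 0.0763). Its size is uncertain, since 3 of 4 wild-type DN3 arrays were below 20 and *Flt3* entered the test through ISP8, the log2 difference being 1.95 (SE 0.77) as deposited and 1.02 with 20 added to each value. The adjusted p was 0.0490 without the 2-week pair, but 0.201, 0.253 and 0.163 without the female pair of 3 weeks, the male pair of 3 weeks and the pair of 5 weeks. It was 0.0414 in 1 fit of all 16 arrays and 0.0456 with 20 added. In the paired test of the study's methods, which name no such adjustment, the adjusted p was 0.150. In PKBα-/- mice *Flt3* was higher in ISP8 in 3 of 4 mice (log2 difference 1.22, SE 1.09, adjusted p = 0.461).

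**Figure D2:**
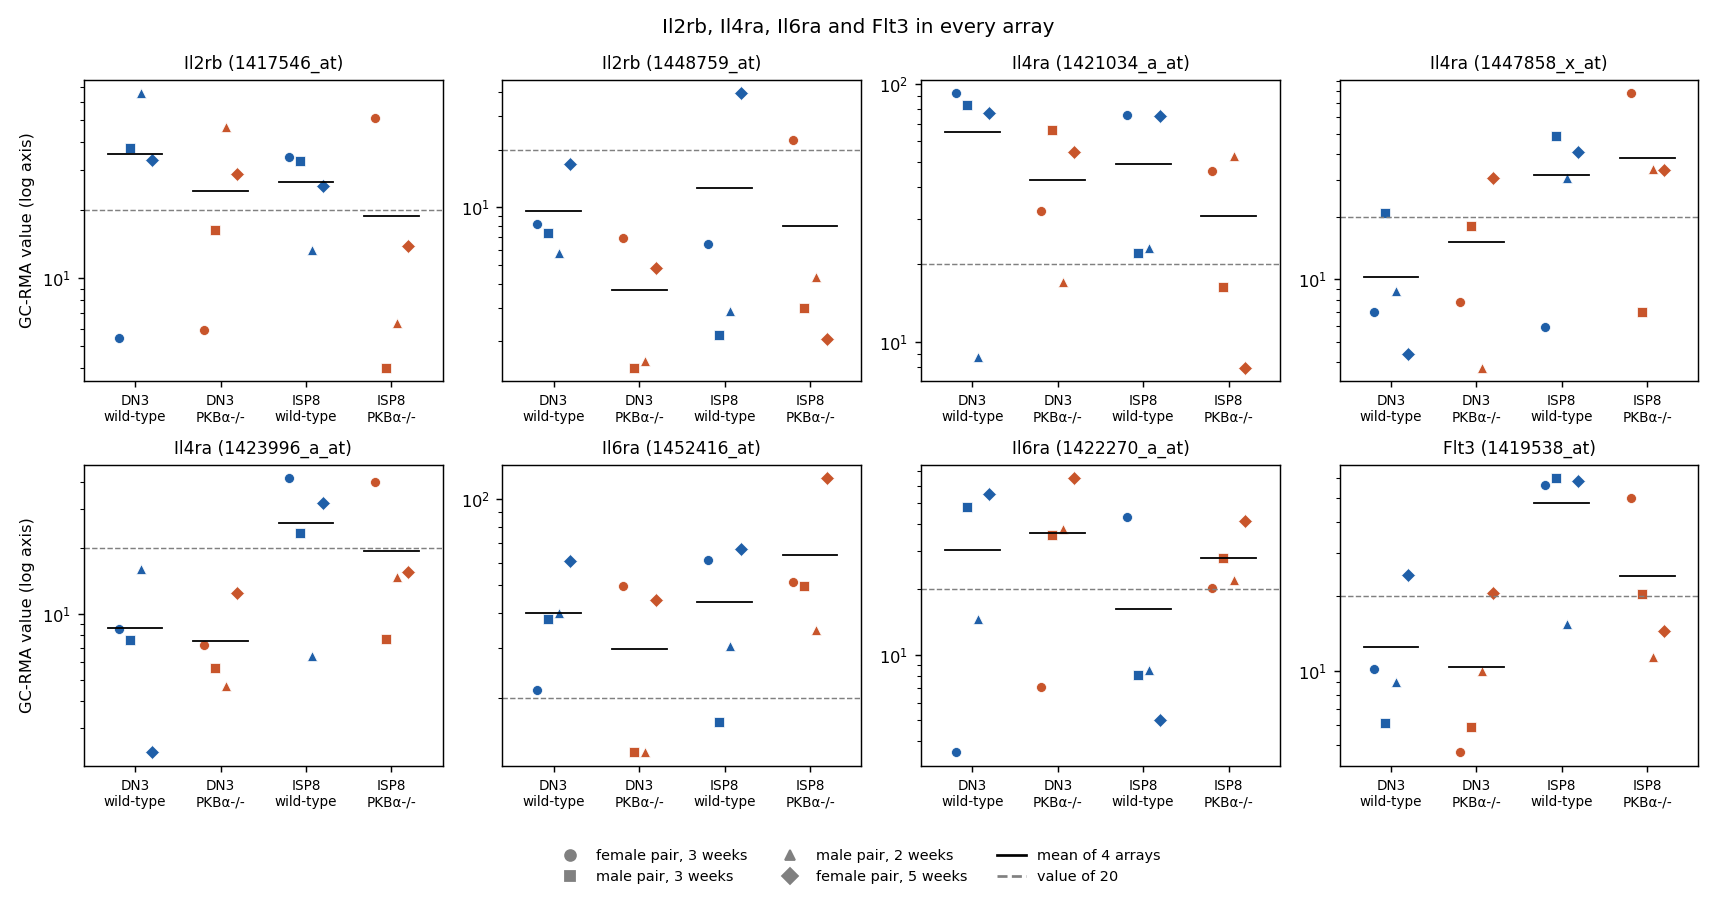
GC-RMA values on a log axis of all probe sets of *Il2rb*, *Il4ra*, *Il6ra* and *Flt3* in each of the 16 arrays, drawn as for *Il7r*, *Il2ra* and *Kit*, with a dashed line at 20. The arrays of a group scatter on both sides of 20 at most probe sets, and 3 of the 4 wild-type ISP8 arrays of *Flt3* lie above every wild-type DN3 array.

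The same 3 member probe sets passed between the subsets of PKBα-/- mice. Of 10 member probe sets tested other than those of *Il2ra*, 3 were lower in ISP8 and 0 were higher, both of *Il7r* and the leading one of *Kit*, beside 16.2% lower, 11.9% higher and 28.1% in either direction among the 34038 probe sets tested. The leading *Il7r* probe set gave 7094, 7507, 6109 and 6174 in PKBα-/- DN3 and 649.6, 748, 638 and 659.8 in PKBα-/- ISP8, in the order of pairs used before. It was 9.95-fold lower (log2 difference -3.32, SE 0.10, n = 4 mice, adjusted p = 2.90e-11), and the other *Il7r* probe set was 10.6-fold lower (log2 difference -3.40, SE 0.15, adjusted p = 2.18e-09). The mice differed little from each other at the leading probe set, with single differences of -3.45 to -3.23.

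*Il2ra* was 38.3-fold lower in PKBα-/- ISP8 than in PKBα-/- DN3 at the leading probe set, with DN3 values of 10971, 8018, 8366 and 8263 and ISP8 values of 460.1, 209, 241 and 122. *Kit* gave 762.5, 590.3, 539 and 645.5 in PKBα-/- DN3 and 167, 151, 101 and 49.9 in PKBα-/- ISP8 at its leading probe set, a 5.93-fold lower level (log2 difference -2.57, SE 0.26, adjusted p = 3.67e-06). The 5-week PKBα-/- mouse had the largest *Kit* difference, -3.69, where the other 3 mice had -2.42 to -1.96. The call of *Kit* was lost with the unmoderated paired test named in the study's methods once its p-values were adjusted over all probe sets tested (adjusted p = 0.0605). The study's methods name no such adjustment and applied the paired test between genotypes.

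**Figure D3:**
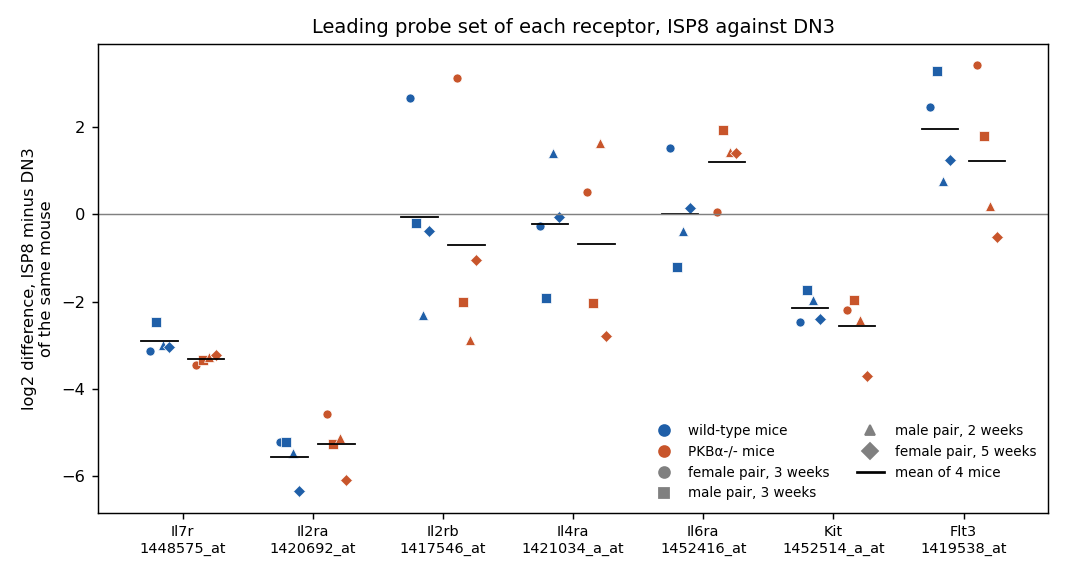
The log2 difference between ISP8 and DN3 of the same mouse at the leading probe set of each of the 7 receptors, with one symbol per mouse, wild-type and PKBα-/- mice in separate colours and a line at the mean of 4 mice. *Il7r*, *Il2ra* and *Kit* lie below 0 in all 8 mice, whereas *Il2rb*, *Il4ra* and *Il6ra* fall on both sides of 0 in wild-type mice.

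The groups of 4 DN3 and 4 ISP8 arrays did not overlap at 6 of the 14 member probe sets in wild-type mice, the 2 each of *Il7r*, *Il2ra* and *Kit*, and at 5 of 14 in PKBα-/- mice, where the second of *Kit* did overlap. The second of *Kit* was parted in wild-type mice only at values below 20, its lowest DN3 array at 17.6 and its highest ISP8 array at 17.5. Among all probe sets tested, 26.7% of those in wild-type and 26.9% of those in PKBα-/- mice did not overlap. These shares cover only probe sets past the filter on low values, whereas the 14 include some that failed it. *Il2ra* is counted here although the gate set its direction, so the counts are not read as a result about the members.

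The comparison of PKBα-/- with wild-type littermates addressed whether loss of PKBα changed the receptors within a subset. In DN3 cells 0 of 10 member probe sets tested passed, 1 had an unadjusted p below 0.05 in the limma fit, and of the 33962 probe sets tested 0.0383% passed in either direction and 4.83% had such an unadjusted p. No member separated the genotypes without overlap in DN3, as 1.74% of all probe sets tested did. *Il7r* differed by a log2 value of -0.02 (SE 0.07, 95% interval -0.17 to 0.13, adjusted p = 0.993) at the leading and -0.01 (SE 0.10, adjusted p = 0.999) at the other probe set, with 2 of 4 pairs in each direction at both.

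The *Il2ra* values of PKBα-/- DN3 cells lay mostly above those of their wild-type littermates, both having been gated on CD25. The other, dimmer probe set gave 1464, 1193, 1192 and 1191 in PKBα-/- DN3 against 1228, 1148, 839 and 1068 in wild-type DN3, higher in 4 of 4 pairs (log2 difference 0.24, SE 0.11, unadjusted p = 0.0483, adjusted p = 0.972). The leading probe set was higher in 3 of 4 pairs (log2 difference 0.13, SE 0.07, adjusted p = 0.972), the male pair of 3 weeks going the other way. *Kit* was higher in 4 of 4 pairs at the leading probe set, with pair differences of 0.02 to 0.42 and a log2 difference of 0.19 (SE 0.14, adjusted p = 0.972). None of these values passed the test. Of the marker lists, 1 gene differed between the genotypes in DN3, the γδ T cell marker *Cd163l1* (log2 difference 1.29, SE 0.14, adjusted p = 0.000539, higher in 4 of 4 pairs), and the γδ markers summed to 2545 to 5421 in PKBα-/- DN3. Their part in the receptor values was not tested.

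In ISP8 cells 0 of 13 member probe sets tested passed and 1 had an unadjusted p below 0.05, beside 0.0147% of 34016 probe sets passing in either direction and 6.08% with such an unadjusted p. That one was the leading *Il7r* probe set, at which all 4 PKBα-/- arrays lay between 638 and 748 and all 4 wild-type arrays between 766 and 1257. The value was lower in 4 of 4 pairs, by 0.26 to 0.75 on the log2 scale (log2 difference -0.42, SE 0.13, 95% interval -0.70 to -0.15, unadjusted p = 0.00573, limma adjusted p = 0.722). It was the 1 member probe set of the 14 whose genotypes did not overlap in ISP8, where 2.91% of all probe sets tested did not. The other *Il7r* probe set gave 146.0, 115, 137 and 140.3 in PKBα-/- and 148, 126, 97.8 and 190.5 in wild-type ISP8, a log2 difference of -0.03 (SE 0.25, 95% interval -0.56 to 0.51, adjusted p = 0.991), and did not show the separation.

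At *Il2ra* the leading probe set was higher in PKBα-/- ISP8 in 3 of 4 pairs (log2 difference 0.43, SE 0.22, adjusted p = 0.825), and at *Kit* it was lower in 3 of 4 (log2 difference -0.23, SE 0.27, adjusted p = 0.903). The other *Kit* probe set was higher in 4 of 4 pairs and did not pass (limma adjusted p = 0.853). All 4 of its wild-type ISP8 arrays were below 20 and it entered this test through PKBα-/- arrays alone. The size of its difference is therefore not given. *Flt3* was lower in PKBα-/- ISP8 in 4 of 4 pairs, with 49.9, 20.5, 11.4 and 14.5 against the wild-type values given above, but did not pass (limma adjusted p = 0.835). It was above 20 in 2 of 4 PKBα-/- ISP8 arrays against 3 of 4 wild-type ones, and entered this test through wild-type arrays. The size of the *Flt3* difference is therefore not given either. The leading probe sets of *Il2rb* and *Il4ra* were lower in 3 of 4 pairs each and that of *Il6ra* was higher in 3 of 4, with adjusted p-values from 0.853 to 0.864.

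**Figure D4:**
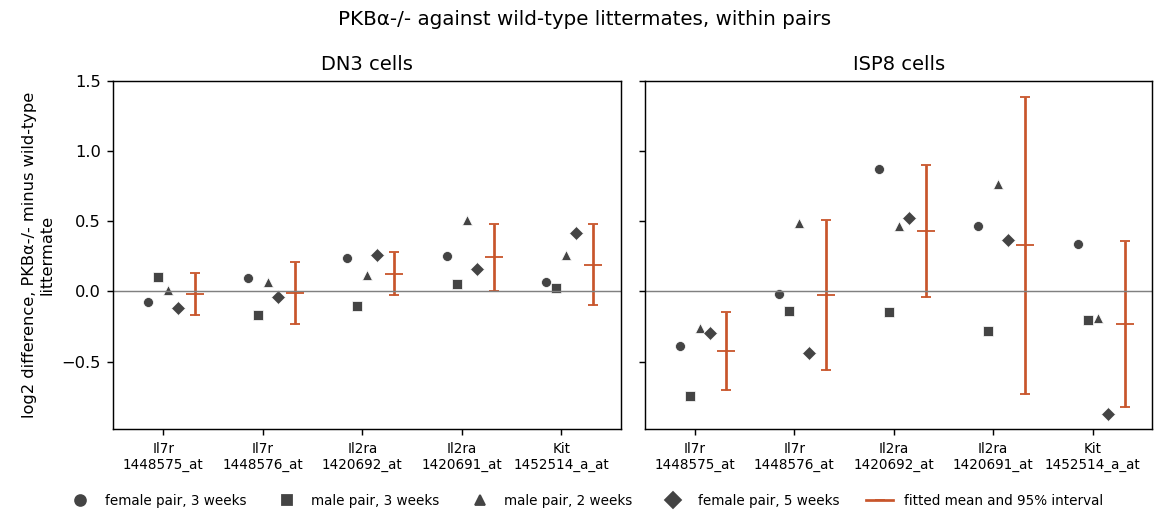
The log2 difference between the PKBα-/- and the wild-type mouse of each littermate pair in DN3 cells and in ISP8 cells, for both probe sets of *Il7r* and *Il2ra* and the leading one of *Kit*, with one symbol per pair and, beside them, the limma estimate with its 95% interval. The 4 pairs lie below 0 at the leading *Il7r* probe set in ISP8 but on both sides of 0 at the same probe set in DN3 and at the other *Il7r* probe set in both subsets.

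Whether the genotype effect differed between the subsets was tested with an interaction term over all 16 arrays. Of 13 member probe sets tested 0 passed and 1 had an unadjusted p below 0.05, and among the 36835 probe sets tested 0% passed in limma, with 1750 (4.75%) at an unadjusted p below 0.05. The one was again the leading probe set of *Il7r*, where the genotype difference was more negative in ISP8 in 4 of 4 pairs (log2 difference -0.41, SE 0.15, unadjusted p = 0.0167, adjusted p = 0.961). For the leading probe sets of *Il2ra* and *Kit* the interaction terms were 0.30 (SE 0.29, adjusted p = 0.966) and -0.42 (SE 0.36, adjusted p = 0.963).

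JAK kinases and STAT factors carry the signals of cytokine receptors in general, of the members as of others. The wild-type counts of this list and the next ones stand beside 17.3% lower and 11.6% higher in ISP8 among all probe sets tested. In PKBα-/- mice these shares were 16.2% and 11.9%. Of the 10 JAK kinases and STAT factors measured, each by its leading probe set, 6 were lower in ISP8 in wild-type mice and 0 were higher, with a median log2 difference of -0.72 where that of all probe sets tested was -0.09. *Stat4*, the IL-12 signal transducer, fell from 2112 ± 366 (SD, n = 4) to 571 ± 102 (log2 difference -1.89, SE 0.13, adjusted p = 2.84e-07), and *Stat3*, which acts below IL-6 family receptors, had a log2 difference of -1.21 (SE 0.16, adjusted p = 8.32e-05). *Jak1* and *Tyk2*, kinases bound to receptor chains, had log2 differences of -0.59 and -0.88 and were lower in 4 of 4 mice each. The other 2 were the IL-7 effectors *Stat5a* (log2 difference -0.89, adjusted p = 0.00206) and *Stat5b* (log2 difference -0.58, adjusted p = 0.00234), named after their values were seen. *Jak3*, the partner of the common γ chain, gave -0.26 and did not pass (adjusted p = 0.478). In PKBα-/- mice 6 of 10 were lower as well, and 0 of the 10 differed between the genotypes in DN3, in ISP8 or in the interaction.

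Of the 20 measured inhibitors and adaptors of cytokine signals, 7 were lower and 1 was higher in wild-type ISP8 (median log2 difference -0.29). *Socs3*, a feedback inhibitor induced by STAT3, fell from 3176 ± 624 to 134 ± 41.1 (log2 difference -4.60, SE 0.22, adjusted p = 9.62e-09). *Socs2* and *Cish*, feedback inhibitors induced by STAT5, had log2 differences of -4.09 (SE 0.26) and -2.67 (SE 0.21), the adaptor *Gab2* of -3.48 (SE 0.25) and the ubiquitin ligase *Cblb* of -1.96 (SE 0.12). The one that was higher was *Pias1*, an inhibitor of activated STATs (log2 difference 0.49, SE 0.12, adjusted p = 0.00695). PKBα-/- mice likewise gave 7 lower and 1 higher. Between the genotypes 0 of the 20 passed in DN3, in ISP8 or in the interaction. In limma 5 of the 20 had an unadjusted p below 0.05 in ISP8, as did 6.08% of all probe sets tested. The counts were 1 in DN3 beside 4.83% of all probe sets, and 3 in the interaction beside 4.75%.

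Of the 12 known targets of IL-7 and STAT5 signals, 7 were lower and 3 higher in wild-type ISP8, and 8 lower and 3 higher in PKBα-/- ISP8. Those lower included *Ccnd2*, the cyclin D2 gene, with a log2 difference of -3.41 (SE 0.10, adjusted p = 3.50e-10), and the survival gene *Bcl2*, with one of -2.17 (SE 0.12, adjusted p = 3.70e-08), next to *Socs2* and *Cish*, which stand on both lists. The 3 that were higher in wild-type mice were the cyclin D3 gene *Ccnd3* (log2 difference 1.40, SE 0.12), the repressor *Bcl6* (1.92, SE 0.28) and the survival gene *Bcl2l1* (1.07, SE 0.16). The list moved in both directions, and its median log2 difference was -0.49.

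Within ISP8 0 of the 12 targets passed between the genotypes, and their median log2 difference was -0.0024. In limma 3 of the 12 had an unadjusted p below 0.05 in ISP8, beside 6.08% of all probe sets tested. The counts were 0 in DN3 beside 4.83%, and 3 in the interaction beside 4.75%. Among the 12, *Ccnd2* was lower in PKBα-/- ISP8 in 4 of 4 pairs, with 773 ± 110 against 1193 ± 231 (log2 difference -0.61, SE 0.11, limma unadjusted p = 0.000114, adjusted p = 0.242). *Ccnd3* was higher in 4 of 4 pairs (log2 difference 0.23, SE 0.08, adjusted p = 0.780). *Cish* (log2 difference -0.84, SE 0.33, adjusted p = 0.803) and *Socs2* (log2 difference -1.13, SE 0.66, adjusted p = 0.836), named after their values were seen, were lower in 4 of 4 pairs each. In DN3 the pairs were split for *Ccnd2* with 3 lower and 1 higher (log2 difference -0.09, SE 0.06, adjusted p = 0.972).

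Of the 33 other cytokine receptor chains with a probe set, 29 were tested in wild-type mice, of which 11 were lower and 2 higher in ISP8. The IL-17 receptor chains *Il17rb* and *Il17ra* had log2 differences of -1.54 (SE 0.16, adjusted p = 8.09e-06) and -1.30 (SE 0.15, adjusted p = 2.68e-05), and the TGF-β receptors *Tgfbr1* and *Tgfbr2* of -0.84 (SE 0.09) and -1.09 (SE 0.13). The 2 that were higher were *Csf2rb*, the common β chain of the IL-3, IL-5 and GM-CSF receptors, with 22.8 ± 17.1 in DN3 and 100.3 ± 15.8 in ISP8, and *Il6st*, the gp130 chain with which IL-6 receptors signal, with 724 ± 183 and 1086 ± 175. In PKBα-/- mice 30 were tested, with 8 lower and 4 higher. Between the genotypes 0 passed in either subset, the smallest p in ISP8 being that of *Il17ra* (log2 difference 0.43, SE 0.11, adjusted p = 0.538, higher in 4 of 4 pairs).

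Of 10 measured ligands of the receptors, 5 passed the filter in wild-type mice and 1 was lower in ISP8, *Tslp*, which encodes a cytokine that signals through the IL-7 receptor α chain and gave 94.4 ± 41.5 in DN3 and 7.72 ± 11.5 in ISP8 (adjusted p = 0.00144). Since its ISP8 mean was below 20, the size of that difference is not given. *Il7* itself had means of 21.0 and 16.9 and did not pass (adjusted p = 0.470).

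Of the 20 measured factors known to regulate *Il7r*, *Il2ra* or *Kit*, 8 were lower and 4 higher in wild-type ISP8 (median log2 difference -0.57), and 9 lower and 2 higher in PKBα-/- ISP8. The log2 difference was -1.73 (SE 0.11, adjusted p = 9.07e-08) for *Runx1*, -2.46 (SE 0.17) for *Notch3*, -0.81 (SE 0.08) for *Notch1*, -0.74 (SE 0.07) for *Bcl11b* and -1.02 (SE 0.12) for *Foxo3*. The 4 that were higher in wild-type ISP8 were *Id3* (log2 difference 1.05), *Ets1* (0.48), *Foxo1* (0.58) and *Gabpa* (0.34). Between the genotypes none passed, and the smallest p in DN3 was that of *Foxo1*, a direct substrate of PKB in other cells, with 755 ± 181 in PKBα-/- and 548 ± 152 in wild-type DN3 (log2 difference 0.48, SE 0.15, adjusted p = 0.844, higher in 4 of 4 pairs). In limma 5 of the 20 had an unadjusted p below 0.05 in DN3, beside 4.83% of all probe sets tested. The counts were 1 of 19 in ISP8 beside 6.08%, and 2 of 20 in the interaction beside 4.75%.

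**Figure D5:**
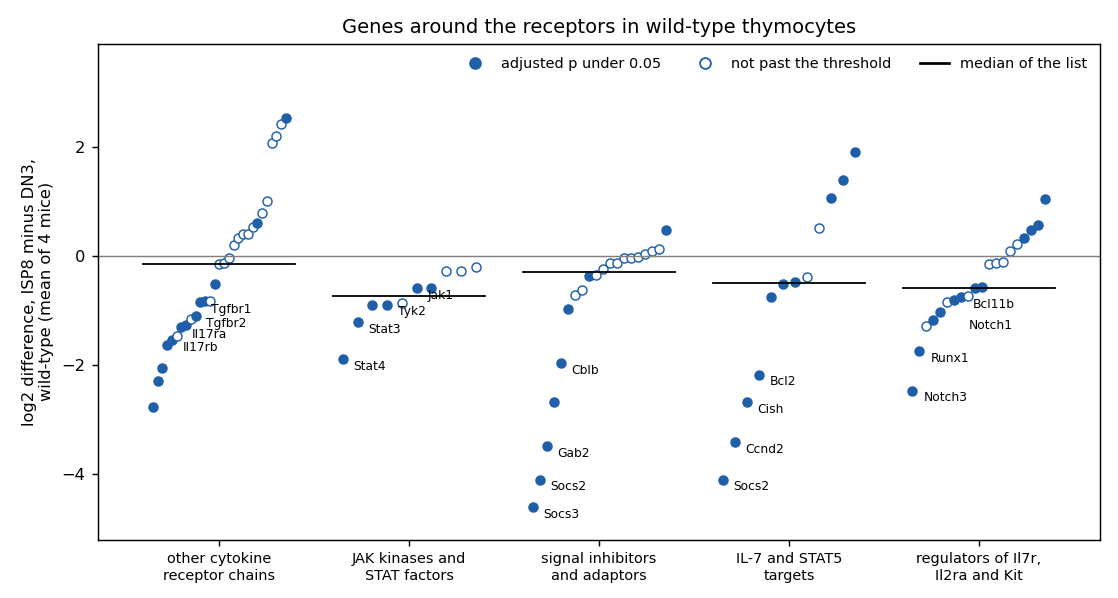
The log2 difference between ISP8 and DN3 in wild-type mice (mean of 4 mice) for the leading probe set of each tested gene in the 5 lists around the receptors, filled where the adjusted p was under 0.05, with a line at the median of each list and the names of up to 4 genes per list with the smallest p. Filled points below 0 outnumber those above 0 in every list, and *Socs3* reaches -4.60. Lower calls also outnumbered higher ones among all probe sets tested, at 17.3% against 11.6%.

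The genes whose leading probe set followed each receptor most closely over the 16 arrays were found among 15601 genes, as a description, since all arrays share the step between subsets. Nearest to *Il7r* were *Plac8* (Pearson's r = 0.995), *Ccnd2* (r = 0.992) and *Tmem176a* (r = 0.992), with means of 14117, 12180.0 and 1572 in DN3 against 3117, 983 and 134 in ISP8. Nearest to *Il2ra* were *Khdc1a* (r = 0.992), *Tm6sf1* (r = 0.990) and *Cd93* (r = 0.988), and nearest to *Kit* were *Gpr65* (r = 0.982), *Wdfy4* (r = 0.968) and *Rras2* (r = 0.968). Within the 8 DN3 arrays alone r for these 3 neighbours was 0.136 to 0.670 for *Il7r*, 0.283 to 0.736 for *Il2ra* and 0.292 to 0.752 for *Kit*, and within the 8 ISP8 arrays it was 0.654 to 0.935, 0.623 to 0.851 and 0.738 to 0.954. The dim receptors had no neighbour as close, with the best r at 0.849 for *Il2rb*, 0.771 for *Il4ra*, 0.781 for *Il6ra* and 0.860 for *Flt3*.

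Probe sets of one gene could be set against each other as a check of the values. Over the 16 arrays the 2 probe sets of *Il7r* correlated with r = 0.982 and those of *Il2ra* with r = 0.982, which again rests on the step between subsets, since within the DN3 arrays r was 0.136 for *Il7r* and 0.736 for *Il2ra*, and within the ISP8 arrays -0.07 and 0.543. The 2 probe sets of *Kit* gave r = 0.495 over all arrays and -0.711 within ISP8, where the dimmer one was at or below 44.3. At *Il2rb*, *Il4ra* and *Il6ra* r between the leading and another probe set ran from -0.01 to 0.193 over all arrays.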

How the data were processed

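Per the labels and the study's methods, RNA of sorted DN3 and ISP8 thymocytes was amplified in 2 cycles and hybridised to Affymetrix mouse genome arrays, and the authors turned the array intensities into background-corrected, normalised GC-RMA values. The deposited table holds these intensity values on a linear scale for 45101 probe sets and 16 arrays. They were log2 transformed without an added constant.

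Gene symbols came from GEO's platform annotation, in which 34958 probe sets had 1 symbol, 932 several and 9211 none, and 34754 were matched by gene ID to RefSeq. A probe set was tested if it was above 20 in at least 1 array of 3 of the 4 pairs or mice. Comparisons used limma 3.58.1 in R 4.3.3 with trended moderation, with the littermate pair (genotypes) or the mouse (subsets, interaction) as a fixed block, and Benjamini-Hochberg adjustment over all probe sets tested at 0.05. The scripts were tested on simulated data. Alternatives changed the filter, constant, normalisation, block, moderation, fit, test, probe set and pairs used.

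The labels name each littermate pair. As a check, deviations from group means over 19807 probe sets with a mean above 100 correlated within pairs at 0.430 to 0.493 in DN3 and 0.156 to 0.274 in ISP8, and between other mice at -0.33 to 0.122.

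The leading probe set of a gene is that with the highest mean over 16 arrays. Named are all members, of each list up to 4 genes per comparison past the threshold with the smallest p, or up to 2 where none passed, the 3 genes most correlated with each member, and *Akt1*. Genes named outside this rule, to spell out a small count or a pathway's main members, were chosen after their values were seen. Members, lists and this rule were chosen with earlier results of these data known. The number of arrays limits the precision. Sequences came from RefSeq promoter windows of GRCm38.p6. Figures were drawn with matplotlib 3.10.9 in Python 3.11.15.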

Additional observations from a re-analysis of the deposited data

Results flagged for a closer look

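Dixon's test for a value far from the others was applied to the 42 combinations of member probe set and group whose mean was above 20, and 4 stood out, where chance flags about 5% of such groups. The female PKBα-/- mouse of 3 weeks was far above the other PKBα-/- DN3 arrays at both *Il2ra* probe sets, with 10971.3 against 8018 to 8366 at the leading one and 1463.98 against 1191 to 1193 at the other. The 2-week wild-type mouse was far below the others at the leading *Il4ra* probe set in DN3, with 8.74 against 77.5 to 92.2, and at *Flt3* in ISP8, with 15.38 against 56.3 to 60.0.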

How the results depend on the processing

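The number of member probe sets past the threshold between ISP8 and DN3, without *Il2ra*, was 3 in wild-type and 3 in PKBα-/- mice. It became 5 in wild-type mice when all 16 arrays entered 1 fit, which added *Flt3* (adjusted p = 0.0414) and the dimmer *Kit* probe set. Leaving out 1 pair at a time, it ranged from 3 to 4 in wild-type mice and stayed at 3 in PKBα-/- mice. Between the genotypes and for the interaction it was 0 under every alternative run. The fit without the pair or mouse as a block gave 3, 3, 0 and 0 in the 4 comparisons for which it was run and changed no call.

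Of 376 tested values of single receptors under an alternative, 353 kept direction and side of the threshold, and the 26 untested ones of *Il2ra* between subsets kept their direction. *Flt3* in wild-type mice passed with 20 added before log2 (log2 difference 1.02, adjusted p = 0.0456), in the fit of all arrays and without the male pair of 2 weeks (2.34, adjusted p = 0.0490). *Kit* in PKBα-/- mice missed the threshold under the methods' t-test with Benjamini-Hochberg adjustment, which the methods do not name (-2.57, adjusted p = 0.0605). 19 values changed sign, none of them past the threshold, and the cause was not tested. Leaving out 1 pair at a time, ISP8 minus DN3 ranged in wild-type mice from -0.96 to 0.70 for *Il2rb*, -0.74 to 0.36 for *Il4ra* and -0.49 to 0.42 for *Il6ra*, and in PKBα-/- mice from -1.98 to 0.021 for *Il2rb* and -1.43 to 0.037 for *Il4ra*. The genotype difference ranged from -0.060 to 0.014 for *Il7r* and -0.78 to 0.042 for *Il4ra* in DN3 and from -1.47 to 0.0056 for *Il4ra* in ISP8, and the interaction from -0.87 to 0.30 for *Il4ra*. When a gene's probe sets were averaged, ISP8 minus DN3 became 0.96 for *Il4ra* and -0.39 for *Il6ra* in wild-type mice and 0.017 for *Il2rb* and 0.62 for *Il4ra* in PKBα-/- mice, the genotype difference 0.011 for *Il4ra* in DN3 and 0.45 for *Kit* in ISP8, and the interaction 0.28 for *Il2rb* and 0.086 for *Kit*. Values of *Il2rb*, *Il4ra*, *Il6ra*, *Flt3* and the dimmer *Kit* probe set lie close to the background of the arrays, which limits what can be detected there.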
